A study of Homo sapiens with 60 samples.

Results

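Cultures of the human astrocytoma-derived line 1321N1 that received no metal were compared 12 h and 1.5 h into a time course, to ask which transcripts change in these cells with time alone. The comparison took the 3 non-treated libraries of 12 h and the 3 of 1.5 h, chosen by their titles, and thus 6 of the 60 libraries of the series. The other libraries were non-treated cells at 3, 6, and 24 h, and cells given 2.55 µM arsenic, 2.3 µM cadmium, or 20 µM mercury for 1.5, 3, 6, 12, or 24 h, with 3 libraries in each of 20 groups. RNA was sequenced from the 3′ end of polyadenylated transcripts, and each gene has a count of the reads that fell on its exons. According to the methods, the cells were seeded in plates and the medium was exchanged for metal-containing medium on the next day. Whether the medium of the non-treated cells was exchanged at the same moment is not stated in the sources used here, so that hours since a change of medium, hours in the plate, and hour of harvest cannot be told apart. 1321N1 is a tumor line grown alone on plastic, and not a primary astrocyte. The sample labels describe the triplicates as technical, so that the p values may measure only the spread between libraries.

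Cells in fresh medium meet a new supply of serum factors and nutrients. Serum factors act through receptor tyrosine kinases, ERK signaling, the serum response factor SRF, the coactivator YAP, and NF-kB, and their first transcriptional products are the immediate-early genes, which need no new protein to be made. Many of these products (DUSP, SOCS, IER, and ERRFI1 proteins, and NFKBIA) shut their own pathway off again, and their transcripts are short-lived. When amino acids run low, the kinase GCN2 raises translation of the transcription factor ATF4, which drives transporters, amino acid enzymes, and stress genes such as CHAC1 and DDIT4. Transcripts of ribosomal proteins are abundant, and their translation follows nutrient supply through mTOR. The respiratory chain is assembled from subunits encoded in the nucleus and a few encoded in mitochondrial DNA.

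The 6 libraries held 3216686 to 3769847 counts at 12 h and 2467162 to 3072179 counts at 1.5 h, so that 3 counts correspond to about 1 CPM, the count relative to the normalized size of the library. Cytosolic ribosomal protein genes took 12.7 to 13.7% of the counts of a library at 12 h and 10.8 to 11.2% at 1.5 h, and nuclear-encoded respiratory chain genes 1.16 to 1.27% and 0.938 to 0.976%. Mitochondrial rRNA took 1.30 to 1.51% at 12 h and 2.00 to 2.26% at 1.5 h, pseudogenes 1.09 to 1.26% and 1.49 to 1.66%, and small RNA genes 0.0237 to 0.0280% and 0.0379 to 0.0452%. None of these ranges overlapped between the times, and their part in the results was not tested. The astrocyte markers GFAP, S100B, AQP4, and ALDH1L1 had 0 counts in the 6 libraries and SLC1A3 had 1 to 5, whereas VIM, CD44, SOX9, and GJA1 were expressed. NES was low, at 6 to 20 counts. Of 14 markers of other cell types, 11 had at most 3 counts in each of the 6 libraries and 7 had 0. Their summed level, here relative to total counts, was 20.8 to 29.97 CPM at 12 h and 32.0 to 33.9 CPM at 1.5 h. It was carried mostly by SYT1 and PDGFRA. CDH1 reached at most 2.84 CPM at 1.5 h and was at 0 CPM at 12 h. In a bulk library, fewer cells of a kind and less RNA per cell cannot be told apart.

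**Figure D1:**
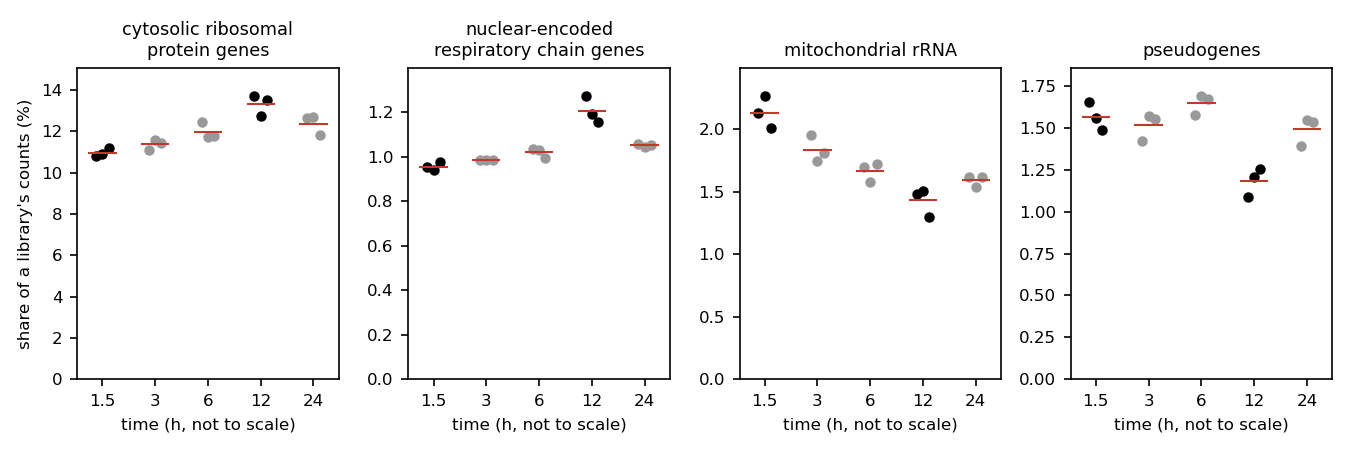
Share of each non-treated library's counts (y axis, %) taken by 4 gene classes at 5 times (x axis, h). Points are libraries, red bars are means of 3, and black points are the 6 libraries compared. The ribosomal protein share was 12.7 to 13.7% at 12 h against 10.8 to 11.2% at 1.5 h, and the mitochondrial rRNA share 1.30 to 1.51% against 2.00 to 2.26%.

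Between 1.5 h and 12 h, 289 genes rose and 216 fell among the 12341 genes with enough counts, at an adjusted p under 0.05 in edgeR's quasi-likelihood test. These are 2.34% and 1.75% of the genes tested, the background for each count of members below. Changes were small. A log2 fold change (LFC, 12 h minus 1.5 h) above 1 was found for 21 of the higher genes, 0.17% of those tested, and an LFC below -1 for 26 of the lower genes, or 0.211%. The levels of the 2 groups did not overlap for 287 of the 289 and 210 of the 216, and for 21.7% of all genes tested. The number of higher genes was 75 without 12 h replicate 1, 118 without 1.5 h replicate 1, 134 without 1.5 h replicate 2, and 183 without 1.5 h replicate 3. The number of lower genes was 86 without 12 h replicate 1, 95 without 1.5 h replicate 1, and 125 without 1.5 h replicate 2. Most called genes were protein-coding, with 281 higher and 180 lower of 10874, and long non-coding RNAs had 8 in each direction of 1091.

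Some immediate-early genes were lower at 12 h. Of 34 tested members of the list, 8 fell and 0 rose, with a median LFC of -0.28, against 0.00 over all genes tested. The largest change was that of IER3, an early-response gene of growth factor and NF-kB signaling that acts on cell survival. IER3, on chromosome 6, 30743199 to 30744548 of GRCh38, was at 4.46, 6.97, and 15.1 CPM at 1.5 h and 1.40, 1.85, and 0.262 CPM at 12 h (LFC -2.89, standard error 0.52, adjusted p = 0.000249), from 14, 20, and 38 counts at 1.5 h and 5, 6, and 1 counts at 12 h. Every library of 12 h lay below every library of 1.5 h, but the counts were few and the 1.5 h libraries differed among themselves. CSRNP1, a nuclear protein induced by AXIN1 and early signals, was at 16.9, 19.2, and 24.7 CPM at 1.5 h and 8.39, 5.25, and 7.33 CPM at 12 h (LFC -1.51, standard error 0.32, adjusted p = 0.00217). MAFF, a small basic leucine zipper partner of the CNC and AP-1 factors, was at 30.6, 45.7, and 29.8 CPM at 1.5 h and 19.6, 13.3, and 15.5 CPM at 12 h (LFC -1.13, standard error 0.20, adjusted p = 0.000191). In both genes, the groups did not overlap.

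The remaining lower members were KLF10, a TGF-beta-inducible zinc finger repressor (LFC -1.12), ATF3, a stress-induced repressor (-1.09), the growth arrest genes GADD45A (-0.86) and GADD45B (-0.61), and IER5 (-0.59). KLF10 was not called without 12 h replicate 1 (adjusted p = 0.102), 12 h replicate 3 (adjusted p = 0.101), or 1.5 h replicate 2 (adjusted p = 0.0645), and ATF3 was not called without 12 h replicate 2 (adjusted p = 0.0869), 12 h replicate 3 (adjusted p = 0.219), 1.5 h replicate 1 (adjusted p = 0.0747), 1.5 h replicate 2 (adjusted p = 0.0645), or 1.5 h replicate 3 (adjusted p = 0.197). FOS, JUN, and EGR1, the subunits of AP-1 and a zinc finger factor by which the early response is often read, were not called, with LFC 0.50, adjusted p = 0.885 for FOS, LFC 0.03, adjusted p = 0.91 for JUN, and LFC -0.64, adjusted p = 0.0764 for EGR1. An LFC below 0 was found for 26 of the 34 members, called or not, and above 0 for 8. Among all 12341 genes tested, 6168 had an LFC below 0. The number of members called lower was 6 to 8 in the fits that left out 1 library.

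Some feedback genes and cytokines of the ERK and NF-kB pathways moved the same way, each list with members lower and 0 higher. In the ERK list, 4 of 25 fell, with a median LFC of -0.29. ERRFI1, an adaptor that blocks the EGF receptor, was at 44.9, 39.8, and 32.2 CPM at 1.5 h and 12.03, 19.1, and 21.5 CPM at 12 h (LFC -1.15, standard error 0.22, adjusted p = 0.000704). HBEGF, a ligand of that receptor, was at 80.9, 73.6, and 72.4 CPM at 1.5 h and 38.9, 47.6, and 44.5 CPM at 12 h (LFC -0.80, standard error 0.14, adjusted p = 0.000264). PLAUR, the urokinase receptor, had an LFC of -0.79 (adjusted p = 5.37e-07). LIF, a cytokine of the interleukin-6 family, had an LFC of -1.77 (adjusted p = 0.0162) from 20, 24, and 27 counts at 1.5 h and 5, 10, and 11 counts at 12 h, and was not called without 12 h replicate 1 (adjusted p = 0.139) or 1.5 h replicate 3 (adjusted p = 0.0767).

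Of 22 tested NF-kB genes, 3 fell, with a median LFC of -0.31. NFKBIA encodes the inhibitor that holds NF-kB in the cytoplasm and is itself a target of NF-kB. NFKBIA, on chromosome 14, 35401079 to 35404749, was at 221, 242, and 215 CPM at 1.5 h and 129, 127, and 134 CPM at 12 h (LFC -0.80, standard error 0.10, adjusted p = 1.38e-07). The 3 libraries of 12 h lay close together and below those of 1.5 h. BIRC3, an inhibitor of apoptosis (LFC -0.53), was not called without 12 h replicate 1 (adjusted p = 0.106), 12 h replicate 2 (adjusted p = 0.0767), 12 h replicate 3 (adjusted p = 0.0601), 1.5 h replicate 1 (adjusted p = 0.0919), or 1.5 h replicate 3 (adjusted p = 0.113). NFKBIB, another inhibitor of NF-kB (LFC -0.52), was not called without 12 h replicate 1 (adjusted p = 0.0577), 12 h replicate 2 (adjusted p = 0.06), or 1.5 h replicate 1 (adjusted p = 0.111). SOCS3, the feedback inhibitor of cytokine receptors that signal through STAT3, was at 108, 109, and 108 CPM at 1.5 h and 52.02, 58.7, and 52.4 CPM at 12 h (LFC -0.99, standard error 0.15, adjusted p = 6.61e-06), with 1.5 h libraries that were nearly equal and 12 h libraries all below them.

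The promoters of NFKBIA and MAFF are given as genes that fell and hold a motif of a signal-dependent factor in the 250 bases before their start. Sequences are from RefSeq on GRCh38.p14, 5′ to 3′ on the strand of the gene, with the motifs in capitals. The start is that of RefSeq, which for MAFF, CHAC1, and ATF3 lies inside the GENCODE gene, so that these windows reach into it or lie within it. IER3 has no entry in the table. The NFKBIA promoter lies at chr14:35404750-35404999 on the minus strand, and its capitals mark 1 NF-kB motif (GGGA and CC with any 4 letters between) that starts 81 bases before the start. The MAFF promoter lies at chr22:38201744-38201993 on the plus strand, and its capitals mark a CCAAT box (CCAAT) at 234 bases, an E-box (CACGTG) at 196 bases, and a cAMP response element (CRE, TGACGTCA) at 54 bases before the start.
NFKBIA: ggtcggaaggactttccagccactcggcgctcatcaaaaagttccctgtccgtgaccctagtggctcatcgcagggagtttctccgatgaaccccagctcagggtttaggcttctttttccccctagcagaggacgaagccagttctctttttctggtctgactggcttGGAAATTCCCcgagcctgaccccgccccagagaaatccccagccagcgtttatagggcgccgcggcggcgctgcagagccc
MAFF: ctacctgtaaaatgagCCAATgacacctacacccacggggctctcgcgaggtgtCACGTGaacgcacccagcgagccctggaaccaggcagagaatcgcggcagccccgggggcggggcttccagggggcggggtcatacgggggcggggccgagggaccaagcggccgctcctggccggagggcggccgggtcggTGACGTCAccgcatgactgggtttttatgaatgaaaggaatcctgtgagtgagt
Searched on both strands, the NF-kB motif was present in 22.1% of all 27305 promoters of this length, the CRE in 1.77%, the E-box in 6.49%, and the CCAAT box in 33.0%. Among the 9428 tested genes with a promoter entry, the shares were 27.1%, 3.07%, 9.03%, and 36.1%. The NF-kB motif was in 28.6% of the promoters of higher genes and 28.5% of those of lower genes, and CHAC1 and NDUFB7, which rose, each hold 1 that is not in capitals in their sequences below. These matches are letters in a window, and binding was not measured.

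Targets of YAP and SRF, which respond to serum and to cell spreading, had 6 members lower and 2 higher of 32 tested. CCN2, a secreted matricellular protein, was at 127, 116, and 105 CPM at 1.5 h and 43.6, 76.6, and 51.1 CPM at 12 h (LFC -1.03, standard error 0.18, adjusted p = 0.000179). AMOTL2, an angiomotin that binds YAP at cell junctions, was at 113, 93.8, and 105 CPM at 1.5 h and 51.7, 59.9, and 50.8 CPM at 12 h (LFC -0.94, standard error 0.14, adjusted p = 4.78e-06). F3, tissue factor, had an LFC of -0.89 and was not called without 12 h replicate 1 (adjusted p = 0.0757), 12 h replicate 3 (adjusted p = 0.0995), or 1.5 h replicate 1 (adjusted p = 0.0717). AXL and ANKRD1 rose, with LFCs of 0.38 and 0.47, so that the list did not move as a block. The number of lower members was 3 without 12 h replicate 1, and that of higher members 1 without 12 h replicate 1, 1 without 12 h replicate 2, 1 without 12 h replicate 3, 1 without 1.5 h replicate 1, and 1 without 1.5 h replicate 3.

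Notch and Wnt targets had 1 member lower of 12, the Notch effector HES1. HES1, on chromosome 3, 194136148 to 194138732, represses neurogenic genes and its own promoter, and was at 60.2, 69.04, and 74.4 CPM at 1.5 h and 32.4, 28.7, and 28.3 CPM at 12 h (LFC -1.18, standard error 0.17, adjusted p = 1.46e-06). It had the second largest fall among called genes averaging 50 counts or more, after the signal recognition particle RNA described below. TFPI2, an inhibitor of proteases of coagulation and the matrix, was at 41.1, 45.7, and 55.3 CPM at 1.5 h and 16.2, 25.01, and 26.98 CPM at 12 h (LFC -1.05, standard error 0.21, adjusted p = 0.000903). Among 21 tested TGF-beta and BMP genes, calls were few, 1 of them a rise, and the list as a whole did not rise. Its median LFC was -0.11, with 7 members above 0 and 14 below. ID3, an inhibitor of basic helix-loop-helix factors and a target of BMP signaling, was at 411, 409, and 351 CPM at 1.5 h and 531, 562, and 550.3 CPM at 12 h (LFC 0.49, standard error 0.08, adjusted p = 3.93e-05).

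A few targets of ATF4 showed the largest rises of the named lists. CHAC1 encodes an enzyme that degrades glutathione, and on chromosome 15, 40952962 to 40956512 was at 1.91, 0.349, and 1.19 CPM at 1.5 h and 5.87, 9.88, and 8.90 CPM at 12 h (LFC 2.77, standard error 0.48, adjusted p = 0.000129), from 6, 1, and 3 counts at 1.5 h and 21, 32, and 34 counts at 12 h. DDIT4, an inhibitor of mTORC1 signaling, on chromosome 10, 72273919 to 72276036, was at 5.73, 6.28, and 4.78 CPM at 1.5 h and 16.2, 23.5, and 24.9 CPM at 12 h (LFC 1.93, standard error 0.27, adjusted p = 1.46e-06). All 3 libraries of 12 h exceeded all 3 of 1.5 h for both genes. SLC7A11, the cystine importer, rose with an LFC of 0.51 (adjusted p = 0.00389). ATF3, which the list also holds, fell. The other 36 of the 40 tested members were not called, among them PSAT1 (LFC 0.06, adjusted p = 0.86), an enzyme of serine synthesis, and TRIB3 (LFC 0.44, adjusted p = 0.243), a pseudokinase, and the median of the list was 0.09.

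CHAC1 and ATF3 moved in opposite directions and hold the same element, so both promoters are shown. Capitals mark the ATF4 element (TGATGNAA) and CCAAT boxes. In CHAC1 (chr15:40953221-40953470, plus strand), the element starts 209 bases before the start and 3 CCAAT boxes start at 167, 107, and 80 bases. In ATF3 (chr1:212565157-212565406, plus strand), the element starts at 191 bases and 1 CCAAT box at 25 bases.
CHAC1: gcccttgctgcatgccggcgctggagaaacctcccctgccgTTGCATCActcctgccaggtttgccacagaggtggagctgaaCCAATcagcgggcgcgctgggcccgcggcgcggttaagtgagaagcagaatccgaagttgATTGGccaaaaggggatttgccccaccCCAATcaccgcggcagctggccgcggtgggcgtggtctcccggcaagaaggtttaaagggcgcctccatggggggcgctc
ATF3: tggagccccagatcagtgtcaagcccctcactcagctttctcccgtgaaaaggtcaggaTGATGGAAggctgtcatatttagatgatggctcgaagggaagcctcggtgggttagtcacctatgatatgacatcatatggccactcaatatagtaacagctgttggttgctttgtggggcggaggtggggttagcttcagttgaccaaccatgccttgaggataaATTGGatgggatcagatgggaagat
The ATF4 element was present in 3.19% of all promoters of this length and in 1.35% of those of tested genes. DDIT4 has 2 CCAAT boxes and no ATF4 element in this window.

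PDGFRB and SAMD11 were chosen after their values were seen, as rises outside the lists. PDGFRB, a receptor of platelet-derived growth factor, was at 4.46, 8.37, and 8.36 CPM at 1.5 h and 18.2, 19.5, and 21.7 CPM at 12 h (LFC 1.50, standard error 0.28, adjusted p = 0.000573). SAMD11, a protein with a SAM domain, was at 4.14, 5.58, and 5.57 CPM at 1.5 h and 21.8, 14.5, and 17.8 CPM at 12 h (LFC 1.83, standard error 0.33, adjusted p = 0.000295). Neither overlapped between the groups.

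Transcripts of cytosolic ribosomal proteins rose together by a small amount. Of 77 tested genes, 48 rose and 0 fell, which is 62.3% against 2.34% of all genes, and the median LFC was 0.32. Genes of the small subunit had 23 of 31 higher (median 0.39), and those of the large subunit 25 of 44 (median 0.29). The levels of 62 of the 77 did not overlap between the groups, or 80.5% against 21.7% of all genes tested. RPS26 was at 256, 334, and 270.2 CPM at 1.5 h and 546, 473, and 559 CPM at 12 h (LFC 0.88, standard error 0.12, adjusted p = 1.09e-06). RPS27 was at 652, 674, and 667 CPM at 1.5 h and 1262, 1083, and 890.0 CPM at 12 h (LFC 0.70, standard error 0.13, adjusted p = 0.000371), highest in replicate 1 and lowest in replicate 3 of 12 h. Both encode proteins of the small subunit, and reads of their copies elsewhere in the genome may be mixed in. RPS28 (LFC 0.61) was not called without 12 h replicate 1 (adjusted p = 0.186), 1.5 h replicate 1 (adjusted p = 0.0964), or 1.5 h replicate 2 (adjusted p = 0.0756). The count of higher members was 23 without 12 h replicate 1, 31 without 1.5 h replicate 1, and 31 without 1.5 h replicate 2.

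Nuclear-encoded respiratory chain genes also rose. Of 56 tested, 22 rose and 0 fell, or 39.3% against 2.34%, with a median LFC of 0.34. Complex I, which takes electrons from NADH, had 10 of 25 genes higher, complex III 4 of 8, complex IV 5 of 10, the ATP synthase 3 of 9, and complex II, which belongs also to the citric acid cycle, 0 of 4. NDUFB7, an accessory subunit of complex I on chromosome 19, 14566078 to 14572066, was at 50.6, 46.4, and 23.5 CPM at 1.5 h and 69.4, 83.4, and 86.7 CPM at 12 h (LFC 0.97, standard error 0.22, adjusted p = 0.0047). Among the largest 12 rises were also UQCR10, a small subunit of complex III, at 80.3, 69.4, and 93.5 CPM at 1.5 h and 182, 147, and 113 CPM at 12 h (LFC 0.87, standard error 0.17, adjusted p = 0.000696), and MICOS13, which shapes the crista junctions of the inner membrane, at 43.95, 35.2, and 35.4 CPM at 1.5 h and 79.1, 71.3, and 69.1 CPM at 12 h (LFC 0.93, standard error 0.20, adjusted p = 0.00215). UQCR10 and NDUFB1 (LFC 0.81) were highest in replicate 1 and lowest in replicate 3 of 12 h. NDUFB7 was not called without 1.5 h replicate 3 (adjusted p = 0.0841), where the 1.5 h libraries differed most. The count of higher members was 8 without 12 h replicate 1, 11 without 1.5 h replicate 1, and 12 without 1.5 h replicate 2.

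The promoter of NDUFB7 (chr19:14572067-14572316, minus strand) is shown for its ETS motif (CCGGAAG, in capitals), which starts 24 bases before the start.
NDUFB7: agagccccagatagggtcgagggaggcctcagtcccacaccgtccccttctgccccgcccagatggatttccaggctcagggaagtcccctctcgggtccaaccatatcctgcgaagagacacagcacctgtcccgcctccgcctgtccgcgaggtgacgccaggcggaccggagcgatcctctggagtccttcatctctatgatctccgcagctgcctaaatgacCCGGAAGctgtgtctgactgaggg
This motif was present in 8.82% of all promoters, 17.2% of those of tested genes, 29.0% of those of tested ribosomal protein genes, and 29.5% of those of tested respiratory chain genes. Among called members, it was in 20.5% of 39 ribosomal protein promoters and 38.9% of 18 respiratory chain promoters, and it was in 18.9% of the promoters of all higher genes. Both lists hold many housekeeping genes, and the shares are a description.

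None of the 13 protein-coding genes of mitochondrial DNA was called by edgeR or DESeq2, with 2 lower and 0 higher at an unadjusted p under 0.05 in edgeR, and their median LFC was -0.30. With other fits, 5 to 8 of the 13 were lower: 6 with only the 6 libraries, 5 with the 15 non-treated libraries, and 8 with no filter on low counts. MT-RNR1, the small mitochondrial rRNA, was named after its values were seen, at 3855, 4293, and 3674 CPM at 1.5 h and 2182, 2166, and 2156 CPM at 12 h (LFC -0.86, standard error 0.17, adjusted p = 0.000903). Reads of mitochondrial genes can also match copies in the nuclear genome.

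Processed pseudogenes, which are copies of genes made from their mRNA, were lower at 12 h where they were called. Of 202 tested, 17 fell and 0 rose, with a median LFC of -0.32 and LFCs of -0.92 to -0.36 for the 17, and 10 of the 17 were named for ribosomal proteins. For RPL37, of the large subunit, the level was 1464, 1483, and 1462 CPM at 1.5 h and 2224, 1999, and 2056 CPM at 12 h (LFC 0.51, standard error 0.08, adjusted p = 6.61e-06). Its pseudogene RPL37P2 was at 136, 118, and 115 CPM at 1.5 h and 53.7, 61.1, and 90.9 CPM at 12 h (LFC -0.84, standard error 0.19, adjusted p = 0.00525) and was not called without 12 h replicate 1 (adjusted p = 0.0853). RPS2 rose (LFC 0.60, adjusted p = 0.000652), and its pseudogene RPS2P7 fell (LFC -0.92, adjusted p = 0.0439), though it was not called without 12 h replicate 1 (adjusted p = 0.297), 12 h replicate 3 (adjusted p = 0.0819), 1.5 h replicate 1 (adjusted p = 0.178), or 1.5 h replicate 2 (adjusted p = 0.124). These 4 genes were chosen after their values were seen. Reads of 100 bases can match a ribosomal protein gene and its copies alike, so that the split of reads between them is uncertain.

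Among short RNAs without a standard poly(A) tail, calls were also falls, with 3 of 7 spliceosomal RNAs, 2 of 10 mitochondrial tRNAs, and 2 of 9 other small RNAs called, and 0 of 19 small nucleolar RNAs and 0 of 2 miRNAs. RN7SL1, the RNA of the signal recognition particle, was at 34.7, 28.6, and 42.98 CPM at 1.5 h and 12.03, 16.1, and 16.5 CPM at 12 h (LFC -1.25, standard error 0.28, adjusted p = 0.00389) and was not called without 12 h replicate 1 (adjusted p = 0.051). The U1 variant RNVU1-25 had an LFC of -0.93 and was not called without 12 h replicate 2 (adjusted p = 0.0584), 12 h replicate 3 (adjusted p = 0.051), 1.5 h replicate 2 (adjusted p = 0.0547), or 1.5 h replicate 3 (adjusted p = 0.0683). RNU4-2, the U4 spliceosomal RNA, was chosen after its values were seen (LFC -2.65) and was not called without 12 h replicate 1 (adjusted p = 0.136), 12 h replicate 2 (adjusted p = 0.0617), or 1.5 h replicate 3 (adjusted p = 0.0921). All of these short RNAs have near-identical copies in the genome, and they are read by a method made for poly(A) transcripts.

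Of 58 tested genes of G2 and mitosis, 12 fell and 0 rose (20.7% against 1.75%), with a median LFC of -0.18. They include MKI67, a proliferation marker (LFC -0.39), CDK1, the mitotic kinase (-0.41), PLK1 (-0.41), AURKA (-0.33), BUB1 (-0.45), and CENPE (-0.42). CDCA2, which recruits phosphatase to chromosomes, was at 90.5, 88.2, and 85.96 CPM at 1.5 h and 61.8, 60.5, and 59.98 CPM at 12 h (LFC -0.54, standard error 0.13, adjusted p = 0.00651). KIF11, the motor that separates spindle poles (LFC -0.54), was not called without 12 h replicate 2 (adjusted p = 0.0662), 12 h replicate 3 (adjusted p = 0.103), or 1.5 h replicate 1 (adjusted p = 0.355). CKAP2, a spindle protein (LFC -0.53), was not called without 12 h replicate 2 (adjusted p = 0.0833), 12 h replicate 3 (adjusted p = 0.179), 1.5 h replicate 1 (adjusted p = 0.188), or 1.5 h replicate 3 (adjusted p = 0.0576). The count of lower members was 7 without 12 h replicate 2, 2 without 12 h replicate 3, 4 without 1.5 h replicate 1, and 7 without 1.5 h replicate 3, so that it depended on single libraries.

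Of 48 tested genes of DNA replication, 4 rose and 0 fell, with a median of 0.13. E2F2, a factor that switches on S phase genes, was at 39.5, 50.6, and 40.99 CPM at 1.5 h and 86.4, 74.7, and 66.00 CPM at 12 h (LFC 0.79, standard error 0.15, adjusted p = 0.00046). MCM3, of the replicative helicase, had an LFC of 0.37 (adjusted p = 0.0215). RFC4, of the clamp loader (LFC 0.57), was not called without 12 h replicate 1 (adjusted p = 0.065) or 1.5 h replicate 1 (adjusted p = 0.157). CHAF1B, of the chromatin assembly factor (LFC 0.59), was not called without 12 h replicate 1 (adjusted p = 0.187), 12 h replicate 3 (adjusted p = 0.106), 1.5 h replicate 1 (adjusted p = 0.3), or 1.5 h replicate 3 (adjusted p = 0.0795). The count of higher members was 1 without 12 h replicate 1, 1 without 1.5 h replicate 1, and 2 without 1.5 h replicate 3. Among inhibitors of cyclin-dependent kinases and p53 targets, 2 of 29 fell, against 5 with DESeq2 and 1 with no filter on low counts. The 2 were AEN, a nuclease of apoptosis (LFC -0.54), which was not called without 1.5 h replicate 3 (adjusted p = 0.0745), and PHLDA3, an inhibitor of AKT (LFC -0.48), which was not called without 12 h replicate 2 (adjusted p = 0.0753), 12 h replicate 3 (adjusted p = 0.0697), 1.5 h replicate 1 (adjusted p = 0.0769), or 1.5 h replicate 2 (adjusted p = 0.11).

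Genes of the antioxidant factor NRF2 rose in 7 of 32 cases and fell in 0. NQO1, a quinone reductase on chromosome 16, 69706996 to 69726668, was at 185, 182, and 174 CPM at 1.5 h and 274, 271, and 260.1 CPM at 12 h (LFC 0.57, standard error 0.08, adjusted p = 4.64e-06). PGD, of the pentose phosphate pathway, was at 135, 128, and 134 CPM at 1.5 h and 207, 199, and 172 CPM at 12 h (LFC 0.54, standard error 0.10, adjusted p = 0.000652). The ferritin chains FTL and FTH1 rose by 0.54 and 0.32, and SLC7A11 and AKR1B1 by 0.51 and 0.43. HMOX1, which heme and metals induce, was not called (LFC -0.09, adjusted p = 0.894), nor was TXNRD1 (LFC 0.07, adjusted p = 0.881), and the list median was 0.10. The count of higher members was 4 without 1.5 h replicate 1.

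The list of heat shock and cytosolic chaperone genes, which also holds the mitochondrial HSPE1, had 5 of 33 genes higher and 0 lower. CRYAB, a small heat shock protein of astrocytes and muscle, was at 232, 261, and 241 CPM at 1.5 h and 406, 336, and 401 CPM at 12 h (LFC 0.64, standard error 0.08, adjusted p = 5.37e-07). HSPE1, the lid of the mitochondrial chaperonin, was at 238, 247, and 254 CPM at 1.5 h and 350.4, 299, and 344 CPM at 12 h (LFC 0.43, standard error 0.08, adjusted p = 0.000769). HSPA8 rose by 0.37 and DNAJA1 by 0.28, and FKBP4 (LFC 0.55) was not called without 12 h replicate 1 (adjusted p = 0.156), 12 h replicate 2 (adjusted p = 0.0595), 1.5 h replicate 1 (adjusted p = 0.0769), or 1.5 h replicate 3 (adjusted p = 0.0952). The inducible HSPA1A was not called (LFC 0.73, adjusted p = 0.178). The count of higher members was 2 without 12 h replicate 1, 3 without 12 h replicate 2, 2 without 1.5 h replicate 1, 3 without 1.5 h replicate 2, and 3 without 1.5 h replicate 3. The list of chaperones of the endoplasmic reticulum (ER) and genes of the unfolded protein response had 4 of 29 genes lower and 0 higher. It had 7 lower with DESeq2, with total counts only, with a minimum count of 30, or with only the 6 libraries. HSPA5, the main ER chaperone, was at 1226, 1239, and 1347 CPM at 1.5 h and 962, 926, and 878 CPM at 12 h (LFC -0.46, standard error 0.08, adjusted p = 3.93e-05). HSP90B1 (LFC -0.41) and MANF (-0.29) fell too, whereas SEC24D, of the COPII coat (LFC -1.29), was not called without 12 h replicate 1 (adjusted p = 0.122), 12 h replicate 2 (adjusted p = 0.0564), 12 h replicate 3 (adjusted p = 0.0516), or 1.5 h replicate 1 (adjusted p = 0.319). The count of lower members was 2 without 12 h replicate 1 and 2 without 12 h replicate 2.

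Glycolysis had 5 of 25 genes higher and 1 lower. ENO1, enolase, was at 2049, 2031, and 2078 CPM at 1.5 h and 3384, 2808, and 2724 CPM at 12 h (LFC 0.53, standard error 0.12, adjusted p = 0.00406) and was not called without 12 h replicate 1 (adjusted p = 0.088). SLC16A3, the lactate exporter (LFC 0.60), was not called without 12 h replicate 1 (adjusted p = 0.0515) or 1.5 h replicate 1 (adjusted p = 0.0573), and TPI1, LDHA, and LDHB had LFCs of 0.49, 0.31, and 0.28. The number of higher members was 0 without 12 h replicate 1, 3 without 12 h replicate 3, 2 without 1.5 h replicate 1, 3 without 1.5 h replicate 2, and 3 without 1.5 h replicate 3, and 3 with total counts only. PDK1, which turns pyruvate away from mitochondria, fell by 0.82 on the log2 scale and was not called without 12 h replicate 2 (adjusted p = 0.195), 12 h replicate 3 (adjusted p = 0.151), 1.5 h replicate 1 (adjusted p = 0.0586), 1.5 h replicate 2 (adjusted p = 0.231), or 1.5 h replicate 3 (adjusted p = 0.0768). It also counts among hypoxia genes, of which 4 of 27 fell and 1 rose. STC1, a secreted glycoprotein, was at 79.9, 84.04, and 79.6 CPM at 1.5 h and 44.5, 49.4, and 45.8 CPM at 12 h (LFC -0.80, standard error 0.11, adjusted p = 1.09e-06). LOX and EPAS1 had LFCs of -0.57 and -0.46, and ADM rose by 0.34. The number of lower hypoxia genes was 2 without 12 h replicate 3 and 2 without 1.5 h replicate 1, and that of higher ones 0 without 12 h replicate 1, 0 without 12 h replicate 2, 0 without 12 h replicate 3, 0 without 1.5 h replicate 1, 0 without 1.5 h replicate 2, and 0 without 1.5 h replicate 3. With no filter on low counts, 2 hypoxia genes were lower and 0 higher.

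Of 36 tested matrix genes, 3 fell and 0 rose. COL6A3, a chain of collagen VI on chromosome 2, 237324003 to 237414328, was at 653, 687, and 675 CPM at 1.5 h and 399, 485, and 387 CPM at 12 h (LFC -0.66, standard error 0.09, adjusted p = 1.09e-06). LOX, which cross-links collagen, was at 338, 351, and 298 CPM at 1.5 h and 204, 228, and 231 CPM at 12 h (LFC -0.57, standard error 0.12, adjusted p = 0.0022). FN1, fibronectin, was at 250.4, 294, and 266 CPM at 1.5 h and 147, 218, and 179 CPM at 12 h (LFC -0.58, standard error 0.13, adjusted p = 0.0047) and was not called without 12 h replicate 1 (adjusted p = 0.0997). COL1A1 (LFC -0.08, adjusted p = 0.772) and COL4A1 (LFC -0.07, adjusted p = 0.93) were not called, and the number of lower members was 5 without 12 h replicate 2, and 5 with DESeq2 or only the 6 libraries.

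Of 10 tested astrocyte identity genes, 1 was called, SOX9. It is a factor that astrocytes and glioma cells share with chondrocytes, on chromosome 17, 72121020 to 72126416, and was at 113, 98.7, and 98.7 CPM at 1.5 h and 49.5, 58.7, and 57.1 CPM at 12 h (LFC -0.91, standard error 0.14, adjusted p = 1.74e-05). The groups did not overlap. VIM (LFC -0.24, adjusted p = 0.315), CD44 (LFC -0.15, adjusted p = 0.262), GJA1 (LFC -0.04, adjusted p = 0.957), and NES (LFC -0.02, adjusted p = 0.992) were not called.

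Several further lists held few calls. Ribosome biogenesis had 2 of 47 higher and 3 lower, of which NOP10 (LFC 0.54) was not called without 12 h replicate 1 (adjusted p = 0.167), 12 h replicate 2 (adjusted p = 0.187), 1.5 h replicate 1 (adjusted p = 0.0623), 1.5 h replicate 2 (adjusted p = 0.119), or 1.5 h replicate 3 (adjusted p = 0.0953), NHP2 (0.39) was not called without 12 h replicate 1 (adjusted p = 0.0624) or 1.5 h replicate 1 (adjusted p = 0.0623), and NOP14 (-0.38) was not called without 12 h replicate 2 (adjusted p = 0.105), 1.5 h replicate 1 (adjusted p = 0.06), or 1.5 h replicate 2 (adjusted p = 0.0506). Polyamine genes had 1 of 16 higher and 2 lower. OAZ1 (LFC 0.37) was not called without 12 h replicate 2 (adjusted p = 0.0892) or 1.5 h replicate 3 (adjusted p = 0.103), AMD1 (-0.30) was not called without 12 h replicate 1 (adjusted p = 0.0943), 12 h replicate 2 (adjusted p = 0.0925), 12 h replicate 3 (adjusted p = 0.0926), 1.5 h replicate 1 (adjusted p = 0.157), or 1.5 h replicate 3 (adjusted p = 0.147), and ATP13A3 (-0.57), whose levels overlapped, was not called without 12 h replicate 1 (adjusted p = 0.236), 12 h replicate 3 (adjusted p = 0.24), 1.5 h replicate 1 (adjusted p = 0.194), or 1.5 h replicate 2 (adjusted p = 0.153). ITGA3 was the 1 lower of 21 integrin and adhesion genes (LFC -0.49), and was not called without 1.5 h replicate 1 (adjusted p = 0.12). SCD was the 1 higher of 25 genes of fatty acid synthesis (LFC 0.26), and lost its call in each of the 6 fits that left out a library, with adjusted p values up to 0.266. PSAP was the 1 higher of 35 lysosome genes (LFC 0.49), and was not called without 12 h replicate 1 (adjusted p = 0.28), 12 h replicate 2 (adjusted p = 0.0846), 1.5 h replicate 1 (adjusted p = 0.0878), 1.5 h replicate 2 (adjusted p = 0.158), or 1.5 h replicate 3 (adjusted p = 0.0556). In glucocorticoid and FOXO genes (18 tested), interferon-stimulated genes (15), LXR and PPAR targets (20), and markers of other cell types (2), edgeR and DESeq2 called 0. At an unadjusted p under 0.05 in edgeR, 2 glucocorticoid and FOXO genes were lower, 0 interferon-stimulated genes differed, 2 LXR and PPAR targets were higher and 1 lower, and 1 marker was lower.

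The other genes among the 12 largest rises have varied roles. SUMF1, which activates sulfatases, had an LFC of 1.002 and was not called without 12 h replicate 1 (adjusted p = 0.065), 12 h replicate 3 (adjusted p = 0.0526), 1.5 h replicate 1 (adjusted p = 0.123), or 1.5 h replicate 2 (adjusted p = 0.0682). ZNF444, a zinc finger protein (0.96), was not called without 12 h replicate 1 (adjusted p = 0.0527), 1.5 h replicate 1 (adjusted p = 0.108), or 1.5 h replicate 3 (adjusted p = 0.073). KRT80, a keratin (0.92), was not called without 12 h replicate 1 (adjusted p = 0.0779) or 1.5 h replicate 3 (adjusted p = 0.0509). SNHG19, a host of small nucleolar RNAs (0.92), was not called without 12 h replicate 1 (adjusted p = 0.167), 1.5 h replicate 1 (adjusted p = 0.089), or 1.5 h replicate 3 (adjusted p = 0.0542). AGTRAP, which binds the angiotensin receptor (0.91), was not called without 12 h replicate 1 (adjusted p = 0.0563), 12 h replicate 2 (adjusted p = 0.0805), 12 h replicate 3 (adjusted p = 0.118), 1.5 h replicate 1 (adjusted p = 0.227), or 1.5 h replicate 2 (adjusted p = 0.112). CBX7, of the Polycomb complex (0.91), was not called without 12 h replicate 1 (adjusted p = 0.0598), 1.5 h replicate 1 (adjusted p = 0.0669), or 1.5 h replicate 2 (adjusted p = 0.091). P2RY11, a purine receptor (0.89), was not called without 12 h replicate 1 (adjusted p = 0.0581), 12 h replicate 2 (adjusted p = 0.0628), 12 h replicate 3 (adjusted p = 0.0869), 1.5 h replicate 2 (adjusted p = 0.12), or 1.5 h replicate 3 (adjusted p = 0.167). UBL5, a ubiquitin-like protein of splicing, was at 461, 453, and 460.0 CPM at 1.5 h and 1027, 905, and 573 CPM at 12 h and was not called without 12 h replicate 1 (adjusted p = 0.0724). Of the 12 largest falls, SNHG4 (-0.94) was not called without 12 h replicate 1 (adjusted p = 0.075), 12 h replicate 2 (adjusted p = 0.084), or 1.5 h replicate 2 (adjusted p = 0.194), and SDE2 (-0.93), a regulator of replication and splicing, was not called without 12 h replicate 1 (adjusted p = 0.139) or 1.5 h replicate 1 (adjusted p = 0.0645).

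Circadian genes were examined because a medium change can set the cellular clock, in which CLOCK and BMAL1 drive PER, CRY, and NR1D genes that repress them in turn. None of the 13 core genes was called by edgeR, and 4 were lower and 0 higher at an unadjusted p under 0.05 in edgeR. NR1D2, a repressor of BMAL1, came nearest, at 45.5, 45.3, and 38.2 CPM at 1.5 h and 30.5, 31.8, and 29.3 CPM at 12 h (LFC -0.50, standard error 0.16, adjusted p = 0.0673), and was called by DESeq2 (adjusted p = 0.032). PER1 (LFC -0.47, adjusted p = 0.599), PER2 (LFC -0.33, adjusted p = 0.767), PER3 (LFC -0.40, adjusted p = 0.558), NR1D1 (LFC -0.48, adjusted p = 0.797), DBP (LFC 0.62, adjusted p = 0.748), and BMAL1 (LFC 0.15, adjusted p = 0.888) had levels that overlapped between the groups. CLOCK, CRY1, BHLHE40, and BHLHE41 had LFCs of -0.16, 0.20, -0.55, and -0.82, with overlapping levels as well. CRY2 (-1.37, adjusted p = 0.258) and TEF (-1.30, adjusted p = 0.177) did not overlap but had few counts, 14, 9, and 7 counts at 1.5 h and 3, 7, and 4 counts at 12 h for CRY2. At these levels, changes of the size seen for most genes could not be detected. Of 21 tested clock genes, 1 was called, CSNK1E, a kinase of PER proteins (LFC -0.52), which was not called without 12 h replicate 1 (adjusted p = 0.109), 1.5 h replicate 1 (adjusted p = 0.131), or 1.5 h replicate 2 (adjusted p = 0.0736). DESeq2 called 2.

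Metallothioneins and zinc transporters bear on the study's metal comparisons, since the non-treated cells are their reference. Of 21 tested, 0 were called by edgeR with all 60 libraries or by DESeq2, and 1 was higher and 2 lower at an unadjusted p under 0.05 in edgeR. MT2A, a metal-binding metallothionein, was at 2591, 2614, and 2604 CPM at 1.5 h and 4901, 4042, and 2451 CPM at 12 h (LFC 0.54, standard error 0.19, adjusted p = 0.0825), and the groups overlapped. It was called higher in 4 alternatives, with only the 6 libraries (adjusted p = 0.00686), with the 15 non-treated libraries (adjusted p = 0.00299), with no filter on low counts (adjusted p = 1.85e-10), and without 12 h replicate 3 (LFC 0.78, adjusted p = 0.0108). MT1E was at 252, 229, and 189 CPM at 1.5 h and 263, 286, and 226 CPM at 12 h (LFC 0.21, standard error 0.11, adjusted p = 0.316). MT1X (LFC 0.45, adjusted p = 0.439), the zinc exporter SLC30A1 (LFC -0.16, adjusted p = 0.644), and the zinc importer SLC39A10 (LFC -0.12, adjusted p = 0.888) were not called. Between 12 h and 24 h, however, MT2A fell by 1.11 on the log2 scale (adjusted p = 0.00024) and MT1E by 0.65 (adjusted p = 0.000195).

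Genes that rose had shorter transcripts than those that fell. By the canonical transcript of each gene, the median length was 1351 bases for higher genes, 3854.5 for lower genes, and 3159 for all genes tested. With the genes in 5 bins by length, 6.48% of the shortest bin rose and 1.70% fell, with a median LFC of 0.09, and 0.567% of the longest bin rose and 2.43% fell, with a median of -0.08. Without ribosomal protein and respiratory chain genes, the counts were 103 higher and 42 lower in the shortest bin and 12 and 59 in the longest. Median GC content was 53.1% for higher, 45.5% for lower, and 47.5% for all genes tested. Ribosomal protein and respiratory chain genes had a median length of 887 bases and a median GC content of 47.5%. Higher genes without these 2 lists had medians of 1781 bases and 54.4%. The part of length and GC content in the results was not tested.

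The non-treated cells at 3, 6, and 24 h show when the levels were reached. Against the same 1.5 h libraries, 15 genes differed at 3 h (0.122% of those tested, 0 higher), 60 at 6 h (0.486%, 26 higher and 34 lower), and 406 at 24 h (3.29%, 227 higher and 179 lower). The genes called higher at 12 h had median LFCs of 0.08, 0.21, 0.49, and 0.27 in cells of 3, 6, 12, and 24 h, and those called lower had -0.12, -0.22, -0.54, and -0.33. These comparisons share the 1.5 h libraries, and the genes were chosen on their 12 h values. Their medians are therefore largest at 12 h in part by that choice, which also favors a return at 24 h. The same holds for genes named by their 12 h change and compared below between 12 h and 24 h. Between 12 h and 24 h, 189 genes differed (1.53%, 109 higher and 80 lower). The number at 3 h was 9 without 1.5 h replicate 1, 9 without 3 h replicate 1, and 9 without 3 h replicate 3, the number at 6 h 22 without 1.5 h replicate 1, 26 without 1.5 h replicate 2, 30 without 1.5 h replicate 3, 20 without 6 h replicate 1, and 19 without 6 h replicate 3, and the number at 24 h 207 without 1.5 h replicate 1, 179 without 1.5 h replicate 2, 180 without 24 h replicate 1, 180 without 24 h replicate 2, and 627 without 24 h replicate 3. That between 24 h and 12 h was 60 without 12 h replicate 1, 45 without 12 h replicate 2, 70 without 24 h replicate 1, and 52 without 24 h replicate 2.

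Several signaling genes were already lower at 3 h. HES1 was at 67.9 ± 7.18 CPM at 1.5 h, 32.4 ± 2.69 and 29.8 ± 4.42 CPM at 3 and 6 h, 29.8 ± 2.28 CPM at 12 h, and 27.1 ± 1.88 CPM at 24 h (SD, n = 3). NFKBIA was at 226 ± 14.2 CPM at 1.5 h, 119 ± 10.8 and 147 ± 12.5 CPM at 3 and 6 h, 130.2 ± 3.36 CPM at 12 h, and 180.4 ± 10.99 CPM at 24 h (SD, n = 3), lower at 3 h (LFC -0.92, adjusted p = 8.85e-10) and higher again at 24 h than at 12 h (LFC 0.47, adjusted p = 0.00388). SOCS3, CCN2, HBEGF, AMOTL2, and CSRNP1 were also called lower at 3 h, with LFCs of -0.85, -0.91, -0.78, -0.69, and -1.37. At 6 h, MAFF (-1.04), IER3 (-3.30), SOX9 (-0.71), STC1 (-0.56), and HSPA5 (-0.37) were called lower. IER3 was higher at 24 h than at 12 h, with an LFC of 2.26 (adjusted p = 0.0144). Levels of HES1, CCN2, COL6A3, and TFPI2 were not called different between 12 h and 24 h, with LFCs of -0.14, 0.05, -0.04, and -0.12.

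Among the rises, DDIT4 was at 5.60 ± 0.760 CPM at 1.5 h, 9.28 ± 2.25 and 15.7 ± 1.77 CPM at 3 and 6 h, 21.5 ± 4.65 CPM at 12 h, and 17.6 ± 5.50 CPM at 24 h (SD, n = 3), and was called from 6 h. NDUFB7, E2F2, CRYAB, and ID3 were called higher at 6 h as well, with LFCs of 1.25, 0.64, 0.37, and 0.35. CRYAB was higher at 24 h than at 12 h (LFC 0.33, adjusted p = 0.0171). UQCR10 was at 81.1 ± 12.1 CPM at 1.5 h, 79.3 ± 3.50 and 88.9 ± 16.2 CPM at 3 and 6 h, 148 ± 34.5 CPM at 12 h, and 79.5 ± 4.35 CPM at 24 h (SD, n = 3), and lower at 24 h than at 12 h (LFC -0.89, adjusted p = 0.00114). UBL5 (LFC -0.68, adjusted p = 0.0415), HSPE1 (LFC -0.44, adjusted p = 0.00135), and ID3 (LFC -0.32, adjusted p = 0.0198) were lower at 24 h too. Ribosomal protein genes had median LFCs of 0.04, 0.13, 0.32, and 0.19 at the 4 later times.

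**Figure D2:**
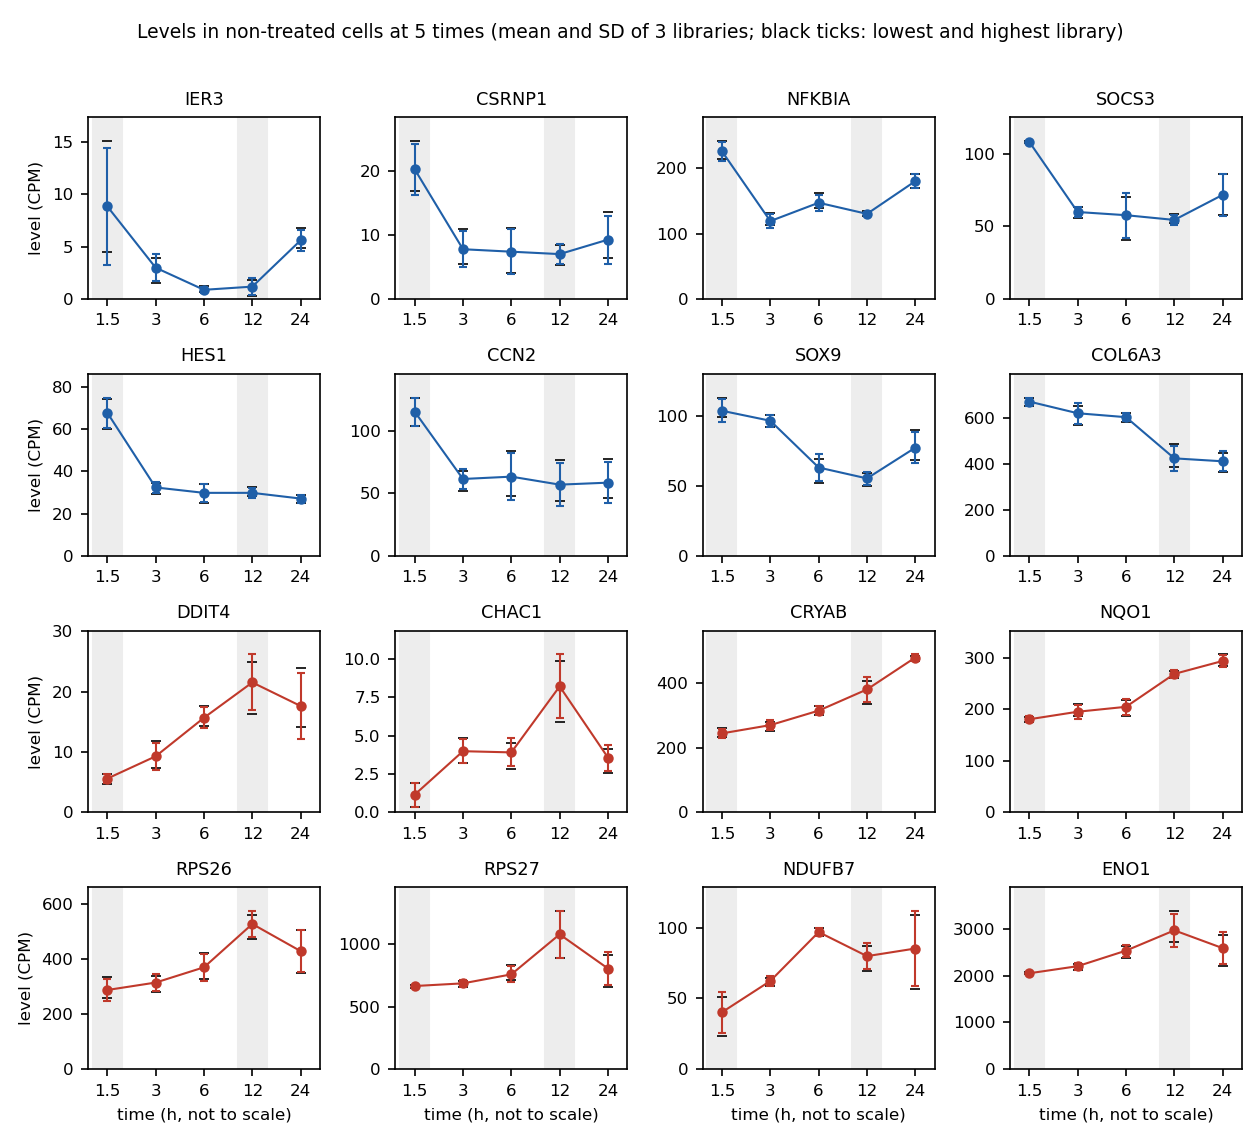
Levels (y axis, CPM) of 16 genes in non-treated cells at 5 times (x axis, h), with genes lower at 12 h in blue and higher in red. Points are means of 3 libraries, colored bars are SDs, black ticks are the lowest and highest library, and grey bands mark the times compared. NFKBIA and HES1 are near their 12 h level by 3 h, whereas COL6A3 and NQO1 were called different from 1.5 h at 12 h and 24 h and not at 3 h or 6 h.

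The same interval was then followed in metal-treated cells, whose libraries are separate from the non-treated ones. Between 1.5 h and 12 h, 465 genes rose (3.77%) and 555 fell (4.5%) with arsenic, 678 rose (5.49%) and 572 fell (4.63%) with cadmium, and 788 rose (6.39%) and 584 fell (4.73%) with mercury. Of the 289 genes higher in non-treated cells, 39 also rose with arsenic (13.5% of them and 8.39% of the arsenic rises), 33 with cadmium (11.4% and 4.87%), and 57 with mercury (19.7% and 7.23%). Of the 216 lower genes, 83 also fell with arsenic (38.4% and 14.96% of the arsenic falls), 40 with cadmium (18.5% and 6.99%), and 60 with mercury (27.8% and 10.3%). In the opposite direction, 4, 1, and 0 of the higher genes fell with arsenic, cadmium, and mercury. Of the lower genes, 2, 28, and 17 rose. The time change of all genes tested differed from that of non-treated cells for 324 genes with arsenic (2.63%), 587 with cadmium (4.76%), and 497 with mercury (4.03%). Among the 505 genes called in non-treated cells, 89, 143, and 91 differed in this way, a share that the choice of these genes raises.

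The higher genes had a median LFC of 0.49 in non-treated cells, against 0.07, 0.07, and 0.18 in arsenic, cadmium, and mercury cells. For the lower genes, the medians were -0.54, -0.28, -0.09, and -0.15. Since the genes were chosen on the non-treated values, these values are larger in part by that choice. Ribosomal protein genes had medians of 0.15, 0.11, and 0.19 with the 3 metals. Their share of the counts at 1.5 h was 10.8 to 11.2% in non-treated libraries. It was 11.2 to 12.2% with arsenic, 11.8 to 11.9% with cadmium, and 10.7 to 11.3% with mercury. HES1 fell in arsenic (LFC -1.29, adjusted p = 7.98e-09) and cadmium (-1.26, adjusted p = 4.9e-08) as in non-treated cells, and its LFC with mercury was -0.33 (adjusted p = 0.189). SOCS3 fell with arsenic (LFC -1.37, adjusted p = 7.28e-11). ERRFI1 rose with cadmium (LFC 1.06, adjusted p = 0.000139).

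**Figure D3:**
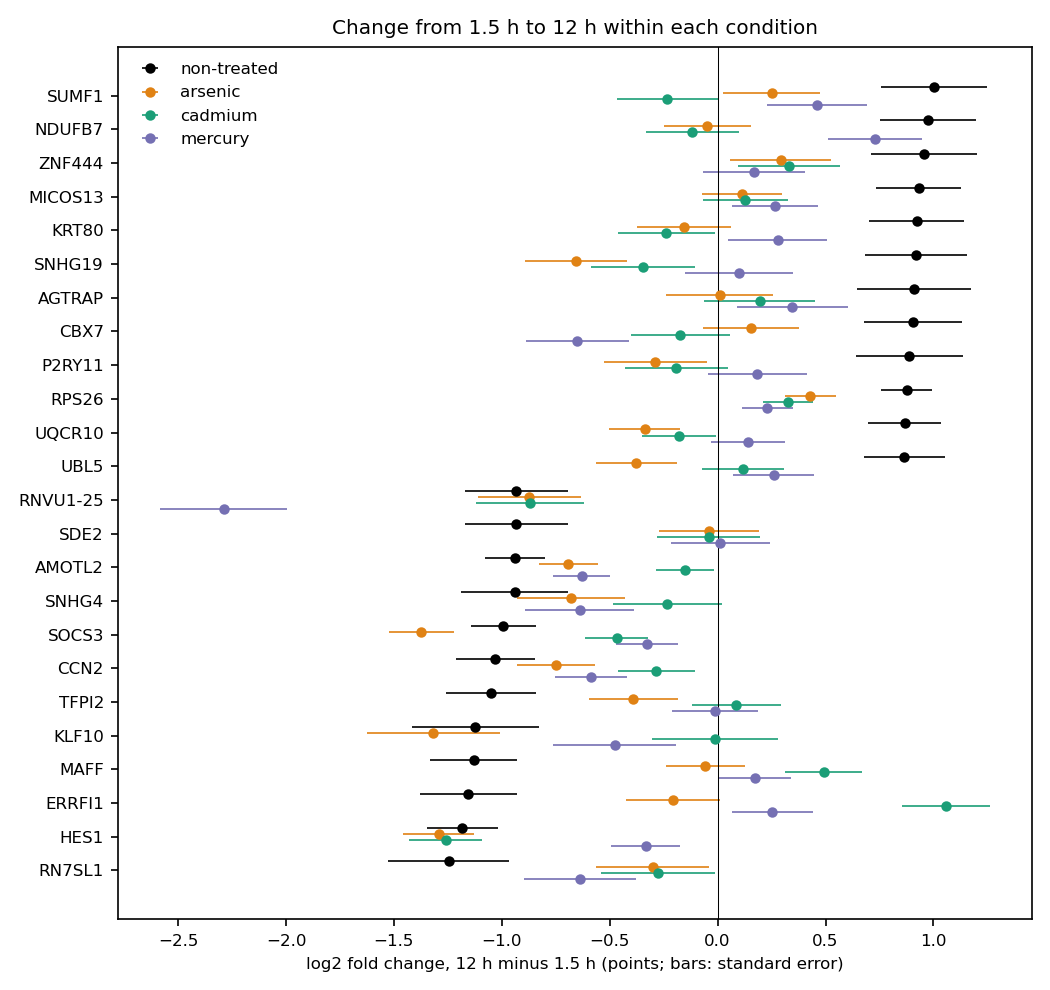
LFC from 1.5 h to 12 h (x axis) of the 12 largest rises and 12 largest falls of non-treated cells (y axis), in non-treated, arsenic, cadmium, and mercury cells. Points are fitted values and bars standard errors, with 3 libraries per time and condition. The genes were chosen on the non-treated values (black), HES1 lies below 0 in all 4 conditions, and ERRFI1 lies above 0 with cadmium.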

How the data were processed

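Total RNA was extracted from 1321N1 cells lysed in the plate, libraries were made from 3′ ends of polyadenylated RNA, and single-end reads of 100 bases were aligned by the authors to GRCh38 with STAR 2.7.9a and counted by strand on GENCODE basic exons, where reads on several genes were dropped. These counts were deposited for each gene without normalization, for 62703 genes and 92 spike-in sequences at 0 counts.

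The 60 libraries (2215276 to 4404609 counts) entered a single edgeR fit (edgeR 4.0.16, R 4.3.3) with 1 coefficient for each of 20 groups, TMM factors (0.934 to 1.03), and genes kept by filterByExpr (minimum count 10, minimum total 15). P values of the quasi-likelihood test received Benjamini-Hochberg adjustment over 12341 genes in each comparison, and a gene was called at an adjusted p under 0.05. The standard error is the LFC divided by the square root of F. CPM values use TMM-scaled library sizes, except for the summed level of markers of other cell types, which uses total counts. The common biological coefficient of variation was 0.120. The script was tested on simulated counts. No set test was run: lists are described by counts and medians.

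Named genes are the 12 largest rises and 12 largest falls among called genes averaging 50 counts or more and no overlap between groups, up to 3 called members of each of 32 lists, and the clock, metal, and marker genes, some of which are not reported here. PDGFRB, SAMD11, MT-RNR1, RNU4-2, RPL37, RPL37P2, RPS2, RPS2P7, and further list members given as examples were chosen after values were seen. The comparison, rule, and lists were chosen with earlier results of these data known. Transcript length and GC content came from canonical GENCODE transcripts and promoters from RefSeq (27305 promoters, GRCh38.p14), of which 9428 matched tested genes by symbol. Alternatives were DESeq2 1.42.0, RLE factors, total counts only, no filter, a minimum count of 30, a replicate block, fits of 6 or 15 libraries, glmTreat, and leaving out each library. Leaving out libraries outside the 6 was added after seeing the data. Replicates differed beyond counting noise (lowest chi-square per degree of freedom 2.67), so that none was a copy.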

Additional observations from a re-analysis of the deposited data

Results flagged for a closer look

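The change from 1.5 h to 12 h differed between non-treated and metal-treated cells for some of the 24 genes with the largest changes, tested as an interaction in edgeR's quasi-likelihood fit with adjustment over 12341 genes. Values are the non-treated LFC minus that with the metal. The genes were chosen for a large non-treated change, which favors such differences, and each condition has 3 libraries per time.

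With arsenic, 7 of the 24 differed. The non-treated change was higher for NDUFB7 by 1.02 (adjusted p = 0.0476), KRT80 by 1.08 (adjusted p = 0.0403), the small nucleolar RNA host SNHG19 by 1.58 (adjusted p = 0.00224), P2RY11 by 1.18 (adjusted p = 0.0475), UQCR10 by 1.20 (adjusted p = 0.000665), and UBL5 by 1.24 (adjusted p = 0.00253). For MAFF the difference was -1.07 (adjusted p = 0.0146).

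With cadmium, 11 of the 24 differed. The non-treated change was higher for SUMF1 by 1.23 (adjusted p = 0.0204), NDUFB7 by 1.09 (adjusted p = 0.0259), KRT80 by 1.16 (adjusted p = 0.018), SNHG19 by 1.26 (adjusted p = 0.0153), CBX7 by 1.08 (adjusted p = 0.035), RPS26 by 0.55 (adjusted p = 0.0392), and UQCR10 by 1.04 (adjusted p = 0.00393). It was lower for ERRFI1, at -2.22 (adjusted p = 2.39e-07), MAFF, at -1.62 (adjusted p = 1.97e-05), TFPI2, at -1.14 (adjusted p = 0.0121), and AMOTL2, at -0.79 (adjusted p = 0.00741).

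With mercury, 8 of the 24 differed. The non-treated change was higher for CBX7 by 1.56 (adjusted p = 0.000911), RPS26 by 0.65 (adjusted p = 0.0114), and the U1 variant RNVU1-25 by 1.36 (adjusted p = 0.0272). It was lower for HES1, at -0.85 (adjusted p = 0.0164), ERRFI1, at -1.41 (adjusted p = 0.000699), MAFF, at -1.30 (adjusted p = 0.000435), TFPI2, at -1.04 (adjusted p = 0.0209), and SOCS3, at -0.67 (adjusted p = 0.0486). MAFF differed with each of the 3 metals.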

How the results depend on the processing

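No result reversed its direction, for the called genes named and the alternatives run. Depth limits low genes: 3 counts are about 1 CPM, and IER3, CHAC1, LIF, and most clock genes had few counts. With glmTreat, 0 genes were beyond an LFC of 1 in either direction at an adjusted p under 0.05, against 21 and 26 by the LFC itself and 2086 genes at an unadjusted p under 0.05 for any change. With DESeq2, 355 rose and 314 fell, with 2 above 1, 11 below -1, 107 differing at 6 h, 366 between 24 h and 12 h, 52 also higher with cadmium, and 137 differing from mercury, and 36 of the genes beyond 1 had no adjusted p from it. DESeq2 also called 3 polyamine genes higher, against 1. With total counts only, 64 genes fell also with cadmium. At 6 h, 134 genes differed with no filter on low counts and 102 with only the 15 non-treated libraries. The cause of these differences was not tested.

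With a replicate block, 288 genes rose and 222 fell, 285 and 213 of them the same genes as without it. The deviations of libraries with the same number correlated at -0.0438, 0.0141, and -0.00477, so that the numbers were not taken to pair the libraries. The other scalings and filters gave 254 to 306 higher and 226 to 268 lower genes, and fits of only the 6 or 15 libraries gave 366 and 364 higher and 315 and 298 lower.

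Leaving out 1 library gave 75 to 261 higher genes, 86 to 166 lower genes, 8 to 26 above 1, and 14 to 31 below -1. It gave 9 to 11 genes differing at 3 h, 19 to 41 at 6 h, 179 to 627 at 24 h, and 45 to 245 between 24 h and 12 h. It gave 23 to 46 genes also higher with arsenic, 14 to 32 with cadmium, and 29 to 56 with mercury, and 44 to 80, 18 to 36, and 31 to 55 also lower. The number whose time change differed was 21 to 147 with arsenic, 47 to 149 with cadmium, and 34 to 89 with mercury.

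Of the 12 largest rises, 3 (MICOS13, RPS26, and UQCR10) kept their call in every alternative that gave a value, as did 7 of the 12 largest falls and 28 of 60 called list members. The median LFC of all genes moved by at most 0.028 over the scalings. Higher genes were 57.2% of the calls.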

Other observations

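Over the same interval, gene lists counted differently in metal-treated cells, each of which has its own libraries. NRF2 targets, with 7 of 32 higher in non-treated cells, had 20, 23, and 24 higher in arsenic, cadmium, and mercury cells. Heat shock and cytosolic chaperone genes had 5 of 33 higher in non-treated cells, and 19, 28, and 29 with the 3 metals. Genes of the amino acid response had 3 of 40 higher in non-treated cells, and 33, 24, and 35 with the metals. Immediate-early genes had 8 of 34 lower and 0 higher in non-treated cells, 18 lower and 0 higher with arsenic, 2 lower and 11 higher with cadmium, and 10 lower and 5 higher with mercury. Genes of G2 and mitosis had 12 of 58 lower in non-treated cells, and 21, 16, and 33 with the metals. Respiratory chain genes had 22 of 56 higher in non-treated cells, and 1, 3, and 7 with the metals. Gene by gene, the time change itself was tested against that of non-treated cells as an interaction in edgeR (adjusted p under 0.05), with arsenic, cadmium, and mercury in that order. The non-treated change was below that with the metal for 11, 12, and 16 NRF2 targets, 9, 19, and 22 chaperones, and 24, 16, and 28 amino acid response genes, and above it for 8, 11, and 2 respiratory chain genes and 2, 2, and 7 genes of G2 and mitosis. Of the immediate-early genes, 10, 0, and 6 were above and 3, 11, and 8 below. With cadmium, 1 amino acid response gene was above and 1 gene of G2 and mitosis was below. Among all genes tested, 2.63%, 4.76%, and 4.03% differed in either direction with arsenic, cadmium, and mercury. A count of 1 or 2 members of these lists is near or below that share.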
